A study of Schizosaccharomyces pombe with 16 samples.

Results

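Cytoplasmic ribosomal protein (RP) genes of the fission yeast Schizosaccharomyces pombe were examined in every medium and genotype of an RNA-seq study of carbon catabolite repression. A gene was taken as a member where its name starts with rpl or rps and a digit, or is rpp0 or rpp with a 3-digit number, and genes of the mitochondrial genome were left out. By this rule 138 of the 7019 features in the count table were members, of which 76 encode proteins of the large (60S) subunit, 55 proteins of the small (40S) subunit and 7 proteins of the P stalk. By their names they encode 77 proteins, 21 of them from a lone gene, 51 from 2 genes and 5 from 3 genes. The names of 90 members came from the parts of the study's supplementary tables held here and those of the other 48 from the RefSeq annotation, because the tables were held in shortened form.

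The study asked which genes respond to the carbon source and to loss of the repressor Scr1. Wild type (h-) cells were grown in rich YES medium with 3% glucose, washed, and moved to fresh medium whose carbon source was 3% glucose, 3% sucrose, 3% glycerol alone (the glucose-starved condition) or 3% glycerol topped up with 0.1% glucose (the glucose-deficient condition). They were harvested 4 hours later at 32 degrees. Each condition had 2 libraries of ribo-depleted total RNA. Cells labelled scr1 disruption (scr1::ura4+ in an h- strain that also carries ade6-m216, leu1-32 and ura4-d18) and cells labelled scr1 deletion (scr1::kanMX6+, strains D163 and D165) were grown in glucose and sucrose only, also with 2 libraries each. The disruption cells thus carry 3 auxotrophy alleles that the labels do not list for wild type. The paper's methods name Y39 both as a wild type strain and as a parent of the diploid that gave D163 and D165. Diploids were selected there through ade6 alleles, so wild type and deletion cells may carry auxotrophy alleles as well.

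Libraries held 14305848 to 18607823 counts and were built in 3 batches, called A, B and C here. Batch A was unstranded, and B and C were stranded. Batches A and B each held 1 wild type library in glucose, 1 in sucrose and 2 disruption libraries. Of the glucose-deficient libraries, replicate 1 was in A and replicate 2 in C, and of the glucose-starved ones replicate 1 was in B and replicate 2 in C. All deletion libraries were in C. Counts on the scr1 feature were higher in the libraries labelled as mutants (88.8 to 125 CPM, the count scaled by the TMM-adjusted library size) than in wild type glucose and sucrose libraries (20.8 to 35.7 CPM). Loss of the whole feature would give lower counts. By the paper's methods, however, the deletion construct was targeted by DNA flanking the coding sequence, and the other mutant is a ura4+ disruption. Parts of the feature may thus remain in both. The paper lists scr1 itself among the genes bound by Scr1 and changed in the mutant, and reads this as autoregulation. Where along the feature these reads lie cannot be seen in a table of counts per feature, so their origin was not tested.

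RPs form the bulk of the ribosome's protein, and their genes are among the most strongly transcribed in growing yeast cells. In yeasts they are transcribed together as a growth-linked set that is known to fall when nutrients fail, under control of the TOR and protein kinase A pathways. In S. pombe many RP promoters lack a TATA box and carry the HomolD box in its place, often with an upstream HomolE box. Most S. pombe RPs are encoded by more than 1 gene, so that a change in a gene need not be a change in its protein's supply.

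The promoter motifs were searched in RefSeq windows of 300 bases (ASM294v3), from 250 bases before to 50 bases after the annotated gene start, on both strands. HomolD was searched as CAGTCACA, and it was present in 88 of 138 member windows (63.8%) against 0.987% of the 4965 windows of other protein-coding genes. HomolE was searched by 9 of its letters, ACCCTACCC, and was present in 41 member windows (29.7%) against 0.524% of the others. TATAAA was in 27.5% of member windows and 48.7% of the others. After the windows had been read, the HomolD letters ending in G (CAGTCACG, which cannot lie on the same letters as the first form) were also searched, and were found in 31 member windows (22.5%) against 0.645% of the others. Either HomolD form was present in 115 members (83.3%) and in 1.63% of other windows. A match is a description of these letters and no proof of a bound site.

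The matches lay at narrow distances from the annotated start. HomolD started at a median of 51 bases before it (position -51), with 85 of 92 matches between positions -70 and -40. The form ending in G had its median at -54, with 28 of 31 matches in the same interval. HomolE lay further upstream, at a median of -70 and always between -95 and -59. HomolD was read on the gene's own strand in 62 matches and on the other strand in 30.

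**Figure D1:**
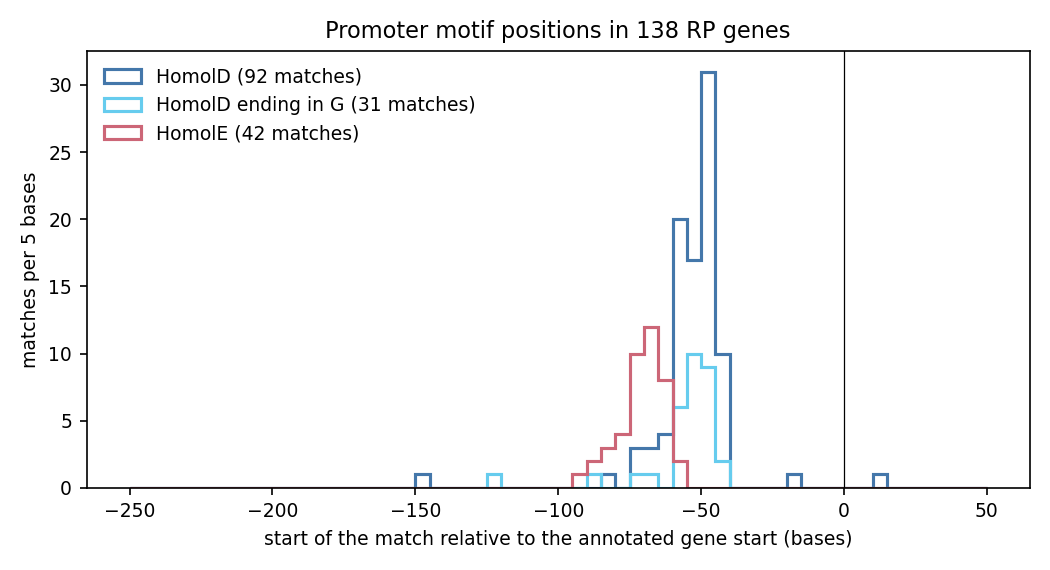
Start of each motif match relative to the annotated gene start (x axis, bases), counted in 5-base bins (y axis) over the windows of 138 RP genes. The outlines are HomolD (92 matches, median -51), HomolD ending in G (31 matches, median -54) and HomolE (42 matches, median -70).

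The 100 bases before the annotated start are shown for genes whose levels are described below, from RefSeq (ASM294v3) and 5′ to 3′ along each gene's own strand, with HomolD, HomolD ending in G and HomolE in capitals. The first pair encodes eS26 and the second uL1, the third pair encodes the stalk protein P2, and the last 4 are rpl1603, which fell furthest in glucose-starved cells, and 3 genes of 40S proteins that were not called lower.
rps2601, chrI:236028-236127, minus strand: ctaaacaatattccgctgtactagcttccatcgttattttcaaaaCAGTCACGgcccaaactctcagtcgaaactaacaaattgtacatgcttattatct
rps2602, chrI:2793485-2793584, minus strand: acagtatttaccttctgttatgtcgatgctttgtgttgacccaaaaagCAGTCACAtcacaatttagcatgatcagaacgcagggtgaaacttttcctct
rpl102, chrII:3060449-3060548, plus strand: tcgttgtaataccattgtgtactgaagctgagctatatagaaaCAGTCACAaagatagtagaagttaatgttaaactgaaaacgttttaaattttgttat
rpl101, chrIII:612580-612679, minus strand: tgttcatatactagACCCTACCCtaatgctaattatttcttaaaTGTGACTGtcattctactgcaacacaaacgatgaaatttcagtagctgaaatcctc
rpp203, chrI:3868989-3869088, plus strand: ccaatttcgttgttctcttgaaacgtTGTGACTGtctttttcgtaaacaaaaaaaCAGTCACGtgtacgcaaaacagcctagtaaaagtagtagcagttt
rpp202, chrII:2128468-2128567, minus strand: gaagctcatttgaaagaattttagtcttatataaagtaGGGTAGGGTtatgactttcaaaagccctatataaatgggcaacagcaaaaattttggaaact
rpl1603, chrII:3443154-3443253, plus strand: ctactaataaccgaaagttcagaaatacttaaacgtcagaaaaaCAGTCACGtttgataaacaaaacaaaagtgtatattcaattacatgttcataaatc
rps13, chrI:2746693-2746792, minus strand: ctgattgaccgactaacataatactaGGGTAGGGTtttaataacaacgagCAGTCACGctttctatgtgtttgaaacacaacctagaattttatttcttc
rps27, chrII:517221-517320, plus strand: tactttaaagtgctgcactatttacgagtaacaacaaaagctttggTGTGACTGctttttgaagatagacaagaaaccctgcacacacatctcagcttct
rps2, chrIII:2096037-2096136, minus strand: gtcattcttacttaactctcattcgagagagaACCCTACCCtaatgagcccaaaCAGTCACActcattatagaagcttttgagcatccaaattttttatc
The copies of eS26 differed in the last letter of the box, the copy that fell having G and the other A, whereas rps13 carried the G form and was not called lower.

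Changes were similar in size with and without HomolD. In the glucose-starved comparison described below, the median log2 fold change was -1.14 for the 88 members with HomolD and -1.15 for the 50 without it. It was -0.98 for the 27 members with only the form ending in G, and -1.23 for the 23 members with neither form. Members with HomolE had a median of -0.85 (41 genes) and members without it -1.19 (97 genes). These are descriptions over members, which are not replicates.

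In wild type cells in glucose the members were among the most abundant transcripts. By CPM per kilobase of feature length, 81 of the 100 highest protein-coding genes and 128 of the 200 highest were members. The median member level was 2041 CPM per kb against 27.2 for all protein-coding genes. The 3 highest were rps7 (eS7) with 4199 and 6815 CPM per kb in the 2 libraries, rps13 (uS15) with 4183 and 6250, and rpl8 (eL8) with 4550 and 5361. These levels overlapped between libraries and their order was not resolved. The 3 lowest were rpl3402 (L34) with 279 and 311 CPM per kb, rpl3002 (eL30) with 152 and 168, and rpl1603 (uL13) with 46.8 and 32.4, which did not overlap one another. The rpl1603 feature is 2668 bases long for a coding length of 594 bases, which lowers its value per kb.

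The spread between genes was larger than that between proteins. When the levels of copies were summed for each protein, the 77 proteins spanned a 5.65-fold range. It ran from 1499 CPM per kb for P0, the base of the stalk, to 8474 CPM per kb for P2. This range depends on the annotated feature lengths. The P0 gene rpp0 had a mean of 3218 CPM in glucose, against 2481 CPM for rps3, which had 2829 CPM per kb. The 90th percentile was 2.42 times the 10th over proteins and 4.16 times the 10th over genes. In glucose-starved cells these ratios were 3.71 over proteins and 10.4 over genes.

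RP genes took between 21.8% and 29.3% of protein-coding counts in the 14 libraries that were not glucose-starved, and much less in the 2 that were. The share was 23.5% and 26.7% in wild type glucose, 22.9% and 28.5% in sucrose, and 21.8% and 23.2% in the glucose-deficient condition. In glucose-starved cells it was 8.93% in replicate 1 and 14.5% in replicate 2, both below every other library but far apart from each other. The libraries labelled scr1 disruption had 22.9% and 29.3% in glucose and 22.2% and 28.6% in sucrose, and those labelled scr1 deletion 25.8% and 25.9% in glucose and 26.1% and 25.6% in sucrose. The 95% Wilson intervals were at most 0.0235 percentage points on either side and cover counting error only. Batch moved with this share: the 5 batch A libraries were at 21.8% to 23.5%, and the 4 batch B libraries that were not glucose-starved were all higher.

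**Figure D2:**
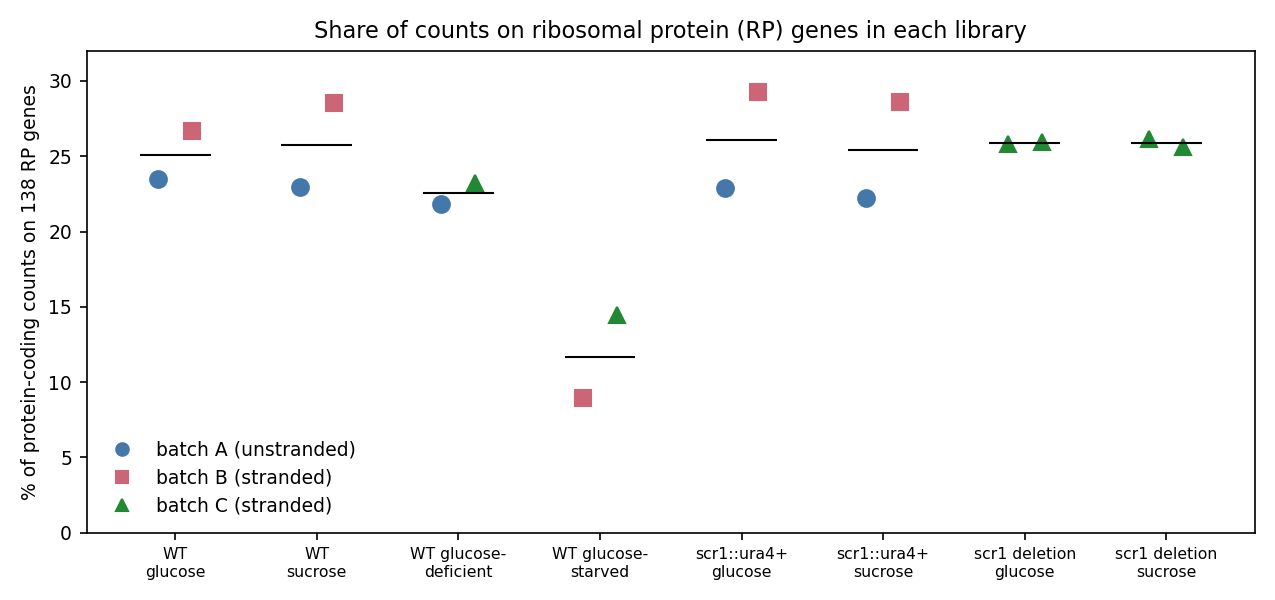
Percent of protein-coding counts that fell on the 138 RP genes (y axis) in each of 16 libraries by condition (x axis). Each symbol is a library, its shape and colour give the batch, and the short line is the mean of 2 libraries. The glucose-starved libraries (8.93% and 14.5%) lie below the other 14 (21.8% to 29.3%).

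RP genes were lower in glucose-starved cells than in glucose. Of the 138 members, 78 fell and 0 rose at an adjusted p under 0.05 with a log2 fold change past 1 in size (edgeR quasi-likelihood test with Benjamini-Hochberg adjustment over all features, used for every adjusted p below). Of the 6691 features tested, 20.0% fell and 20.7% rose by the same rule. Without the fold change minimum, 96 members fell and 0 rose (31.9% and 31.3% of all features), and 101 members had an unadjusted p under 0.05 (66.8% of features). The median log2 fold change was -1.15 over members and -0.02 over all features, and 130 members had a value below 0 (50.6% of features). Both starved libraries were below both glucose libraries for 91 members (37.7% of features) and above them for 3 (30.0%), namely rps13, rps20 and rps1202. The fall was found in both subunits, with 46 of 76 genes of 60S proteins, 29 of 55 genes of 40S proteins and 3 of 7 stalk genes called, and medians of -1.17, -1.05 and -0.98. RNA-seq gives shares of the RNA, so that fewer RP transcripts per cell and more of other transcripts cannot be told apart.

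**Figure D3:**
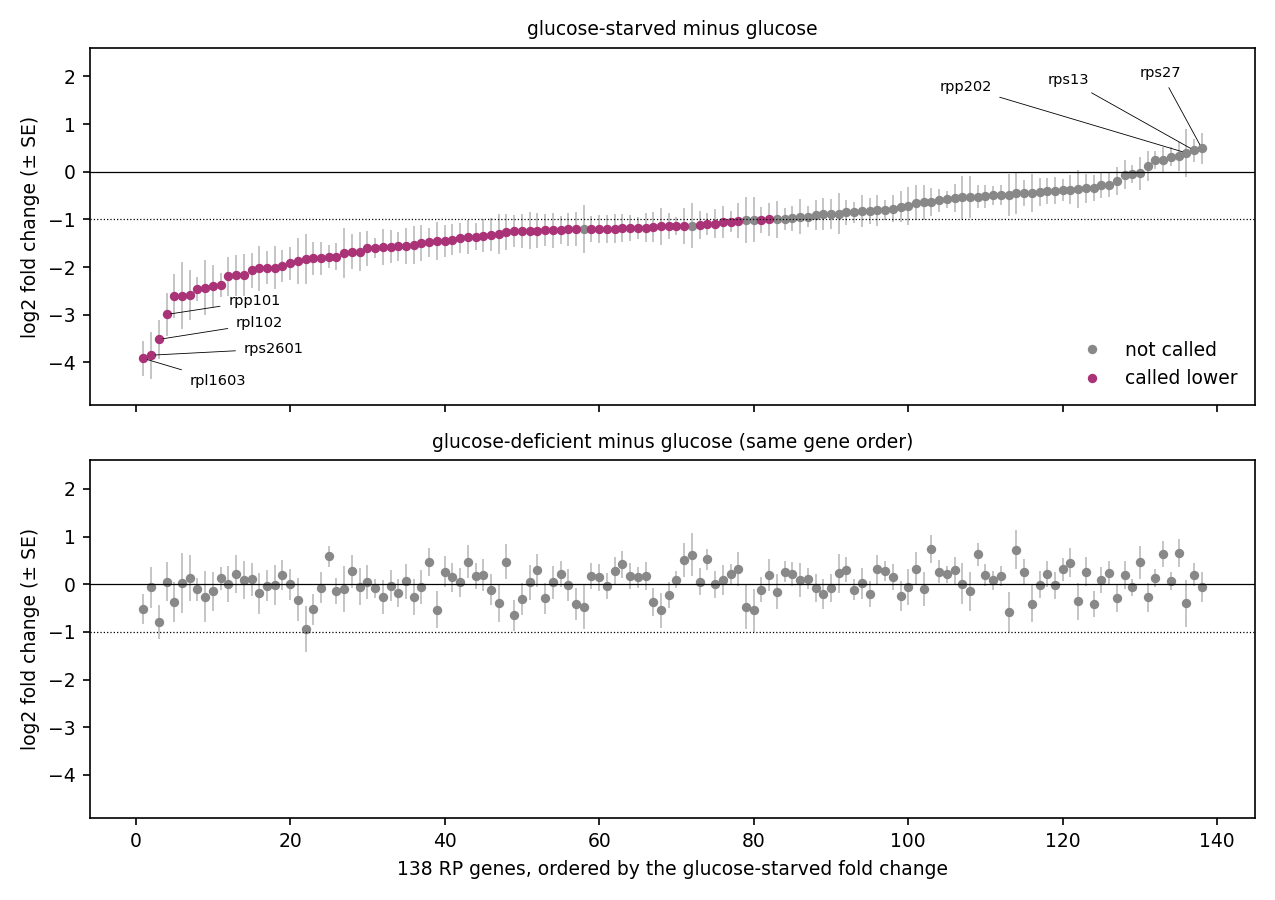
Log2 fold change with its standard error (y axis) for 138 RP genes in the glucose-starved (top) and glucose-deficient (bottom) condition against glucose, in wild type cells, with genes in the order of the top panel (x axis). Genes called lower are coloured: 78 in the top panel and 0 in the bottom one, and the dotted line is a log2 fold change of -1.

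The size of the count of 78 depended on the glucose-starved replicates, which differed. Without replicate 1 the count was 25 lower and 2 higher (rpp202 and rps27). These are 18.1% and 1.45% of members, against 20.7% and 20.5% of all features in the same fit, so the share called lower was then no larger than that of all features. Without replicate 2 it was 117 lower and 0 higher (84.8% of members lower, against 22.0% of all features). The median over members was -0.52 without replicate 1 and -1.84 without replicate 2 (-0.07 and -0.05 over all features). The 25 genes were called in all 3 fits, and 23 of them were also called by every other test and in every fit without 1 library. These 23 are rpl102, rpl1603, rpl1702, rpl1801, rpl1902, rpl2401, rpl2502, rpl2801, rpl401, rpl44, rpl502, rpl803, rpp101, rpp103, rpp203, rps1402, rps1902, rps2302, rps2601, rps2802, rps403, rps802 and rps902. With stranded libraries alone, 40 members fell. In 137 of 138 members replicate 1 was lower than replicate 2, as were 54.3% of all features.

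The fall was also present within batches, where no library is shared between the differences. In batch B, replicate 1 minus the glucose library had a median log2 difference of -1.74 over members (-0.04 over all features), and 135 members were below 0 (51.4% of all features). Batch C had no wild type library in glucose. There, replicate 2 minus the glucose-deficient library had a median of -0.68 (0.03 over all features), and 113 members were below 0 (48.1%). The 2 sets of differences rose and fell together across members (Spearman's rho 0.65 over 138 members, and 0.63 over 6691 features). Levels in both glucose-starved libraries were below those in all 14 other libraries for 84 members (60.9%), against 23.4% of all features.

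**Figure D4:**
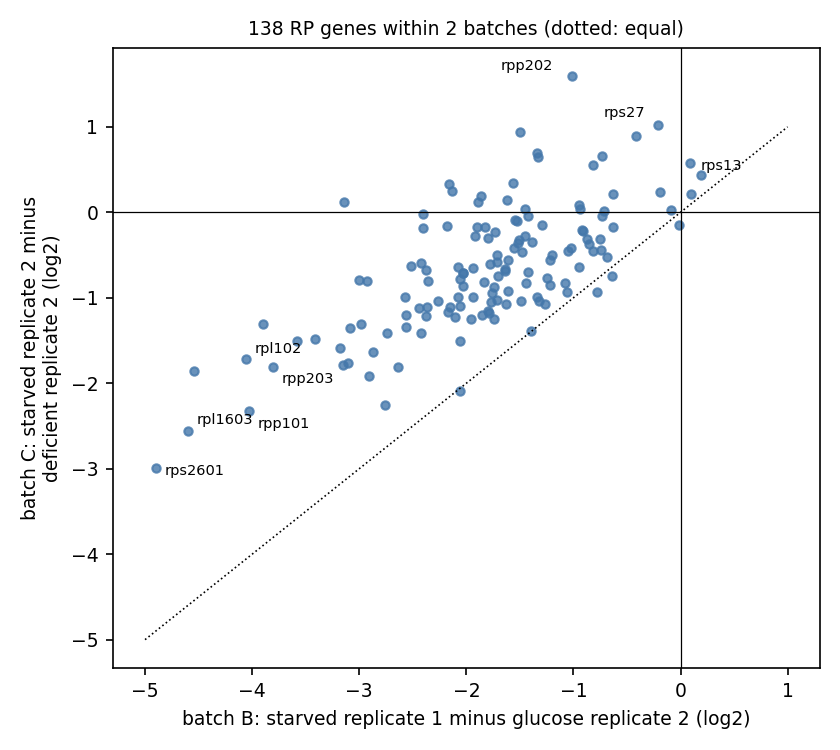
Log2 differences of CPM for 138 RP genes within batch B (x axis, glucose-starved replicate 1 minus glucose replicate 2) and within batch C (y axis, glucose-starved replicate 2 minus glucose-deficient replicate 2). Each point is a gene and the dotted line marks equal values. Most genes lie above the line (medians -1.74 and -0.68), and rps2601 is lowest in both.

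The largest falls were in genes with a copy, as are 117 of the 138 members. rpl1603 (SPBC2G2.05), 1 of 3 genes for uL13 (chromosome II, 3443226 to 3445951, plus strand, in ASM294v2 coordinates of the authors' table, as for all genes below), had 125 and 86.4 CPM in glucose, against 3.08 and 11.0 CPM in glucose-starved cells. The starved values were far below all others, which ranged from 67.3 to 149 CPM. Its log2 fold change was -3.92 ± 0.36 (SE, adjusted p = 3.69e-06). The other uL13 genes had smaller changes. rpl1601 went from 826 and 1024 CPM to 388 and 593 CPM (-1.10 ± 0.23, adjusted p = 0.00142). rpl1602 had 1088 and 908 CPM in glucose, against 204 and 939 CPM in glucose-starved cells, where the groups overlapped and the test was not passed (-1.13 ± 0.48, adjusted p = 0.0565).

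The eS26 genes diverged furthest. rps2601 (SPAC806.03c, chromosome I, 235533 to 236104, minus strand) had 388 and 348 CPM in glucose, against 11.2 and 42.9 CPM in glucose-starved cells, below every other library. It fell by 3.85 ± 0.49 on the log2 scale (adjusted p = 3.61e-05). rps2602 (SPAC1805.11c, chromosome I, 2792839 to 2793544, minus strand) had 1096 and 1357 CPM in glucose, against 818 and 1957 CPM in glucose-starved cells, so the groups overlapped. Its log2 fold change was -0.04 ± 0.35 (adjusted p = 0.934). The proteins are 90% identical and neither gene had a 50-base stretch found elsewhere in the genome, so their reads could be told apart.

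The third of the large falls was rpl102, a gene for uL1 at the L1 stalk, where deacylated tRNA leaves the ribosome (SPBC30D10.18c, chromosome II, 3060505 to 3061591, plus strand). It had 505 and 518 CPM in glucose, against 30.7 and 110 CPM in glucose-starved cells. Both starved values were below every other library, and the log2 fold change was -3.52 ± 0.40 (adjusted p = 1.53e-05). Its copy rpl101 had 2139 and 2584 CPM in glucose, against 754 and 2034 CPM in glucose-starved cells. rpl2502 (uL23), which lines the exit of the peptide tunnel, went from 485 and 495 CPM to 40.9 and 165 CPM (-2.60 ± 0.46, adjusted p = 0.000387). rpl3002 (eL30) went from 92.2 and 102 CPM to 3.89 and 34.3 CPM (-2.60 ± 0.71, adjusted p = 0.00689), and its starved values differed the most from each other among these genes.

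The P stalk recruits elongation factors to the ribosome and is built of P0 with P1 and P2 proteins bound to it. rpp0 had 2987 and 3449 CPM in glucose, against 1266 and 2336 CPM in glucose-starved cells. The groups did not overlap and the adjusted p was 0.00642, but the log2 fold change of -0.98 ± 0.26 was short of the minimum. Of the P1 genes, rpp101 fell from 601 and 799 CPM to 48.6 and 161 CPM (-2.996 ± 0.45, adjusted p = 0.000133). rpp103 fell from 470 and 570 CPM to 95.97 and 210 CPM (-1.92 ± 0.34, adjusted p = 0.000452). rpp102 had 695 and 819 CPM in glucose, against 298 and 734 CPM in glucose-starved cells, which overlapped (-0.65 ± 0.37, adjusted p = 0.139).

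The P2 genes moved apart in the same way. rpp203 fell from 269 and 310 CPM to 21.7 and 85.9 CPM (-2.59 ± 0.53, adjusted p = 0.00117). rpp201 had 1497 and 2456 CPM in glucose, against 1344 and 1819 CPM in glucose-starved cells (-0.52 ± 0.24, adjusted p = 0.0748). rpp202 had 1256 and 1675 CPM in glucose, 827 CPM in glucose-starved replicate 1 and 5037 CPM in replicate 2, the lowest and the highest of all 16 libraries. Its direction was therefore not resolved: the log2 fold change was 0.39 ± 0.51 (adjusted p = 0.52) over both replicates, 1.41 without replicate 1 (adjusted p = 4.27e-06) and -1.05 without replicate 2 (adjusted p = 2.34e-05).

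Of the members at the upper end, none was called. They are rps27 (eS27, 0.49 ± 0.33, adjusted p = 0.212), rps13 (uS15, 0.45 ± 0.24, adjusted p = 0.126), rpp202, rps2 (uS5, 0.32 ± 0.30, adjusted p = 0.369) and rps20 (uS10, 0.31 ± 0.20, adjusted p = 0.194). rps13 had 2644 and 3950 CPM in glucose, against 4197 and 6415 CPM in glucose-starved cells, and rps20 had 1876 and 1970 CPM and 2254 and 3009 CPM. In both genes the starved values were above the glucose values. rps27 had 1848 and 2636 CPM in glucose, against 2274 and 4538 CPM in glucose-starved cells, which overlapped, and without replicate 1 it was called higher. rps2 had 2082 and 1734 CPM and 1632 and 3696 CPM, which also overlapped. All 4 genes of 40S proteins have no copy, and rps2 and rps20 are neighbours on chromosome III, transcribed away from each other (2095135 to 2096018 and 2096504 to 2097017). rps13 and rps2 each overlap another feature on the same strand, with which the authors' counting shares reads.

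Genes with and without a copy were also counted apart. Of the 21 genes with no copy, 5 were called (23.8%, near the 20.0% of all features), with a median log2 fold change of -0.48. Of the 117 genes with a copy, 73 were called (62.4%), with a median of -1.18. Of the genes with no copy, rpl44 (named by RefSeq only as a protein of the ribosomal L28e family) fell furthest, from 1154 and 1840 CPM to 251 and 647 CPM (-2.07 ± 0.37, adjusted p = 0.000451). Across members, the change rose with the level in glucose (Spearman's rho 0.51 over 138 members): less abundant genes fell further. Both measures share the glucose libraries.

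Transcripts were also summed over the copies of each protein. The median log2 change of 77 proteins was -0.75. Of these, 71 had a lower mean in glucose-starved cells than in glucose, and 45 were lower in both starved libraries than in both glucose libraries. Over all single features, 50.6% had a fitted log2 fold change below 0, and 37.7% were lower in both starved libraries. The sums were not counted again without either starved replicate. The lowest was S14, whose genes rps1401 and rps1402 summed to 3233 and 3303 CPM per kb in glucose and 472 and 1125 CPM per kb in glucose-starved cells (-2.03). The highest was S13 (rps13, 0.69 on this scale). S6, which is phosphorylated downstream of TOR, has the genes rps601 and rps602. rps601 went from 2106 and 2280 CPM to 694 and 1780 CPM (-1.05 ± 0.34, adjusted p = 0.0163) and rps602 from 2072 and 2566 CPM to 719 and 1927 CPM (-1.03 ± 0.37, adjusted p = 0.0275). The starved values of both were the lowest of all libraries, but the log2 fold changes lie at the minimum and each call was lost under 11 of the other settings.

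The ratio of copies, which does not depend on how libraries are scaled, was compared in every library for 66 pairs of copies. The log2 ratio of counts per kb in both glucose-starved libraries lay outside all 14 other libraries for 44 pairs (66.7%). Ratios of other gene pairs were not counted, so whether this share is particular to RP copies was not tested. Levels of single features lay below all 14 other libraries in both starved libraries for 23.4% of features, and above them for 20.0%. It differed by more than 1 between the glucose-starved and glucose means for 28 pairs, and between the glucose-deficient and glucose means for 1 pair. In 49 of the 66 pairs the copy with the lower level in glucose also lost ground to the other in glucose-starved cells. The ranking by level and the change share the glucose libraries.

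rps2601 over rps2602 had log2 ratios of -1.42 and -1.88 in glucose, -1.80 and -2.46 in the glucose-deficient condition, and -6.10 and -5.43 in glucose-starved cells. rpp202 over rpp203 had 2.07 and 2.28 in glucose and 5.10 and 5.72 in glucose-starved cells, although rpp202 itself moved in opposite directions in the 2 libraries. rpl1601 over rpl1603 went from 4.61 and 5.45 to 8.84 and 7.62. In each of these pairs the starved values were outside the range of the other 14 libraries. Copies that encode identical proteins could also part: rps23 over rps2302 had log2 ratios of 1.10 and 1.20 in glucose and 3.37 and 2.57 in glucose-starved cells. Over the 16 pairs with identical proteins, the largest change was that of this pair (1.82) and the smallest that of rpl2001 over rpl2002 (0.03).

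**Figure D5:**
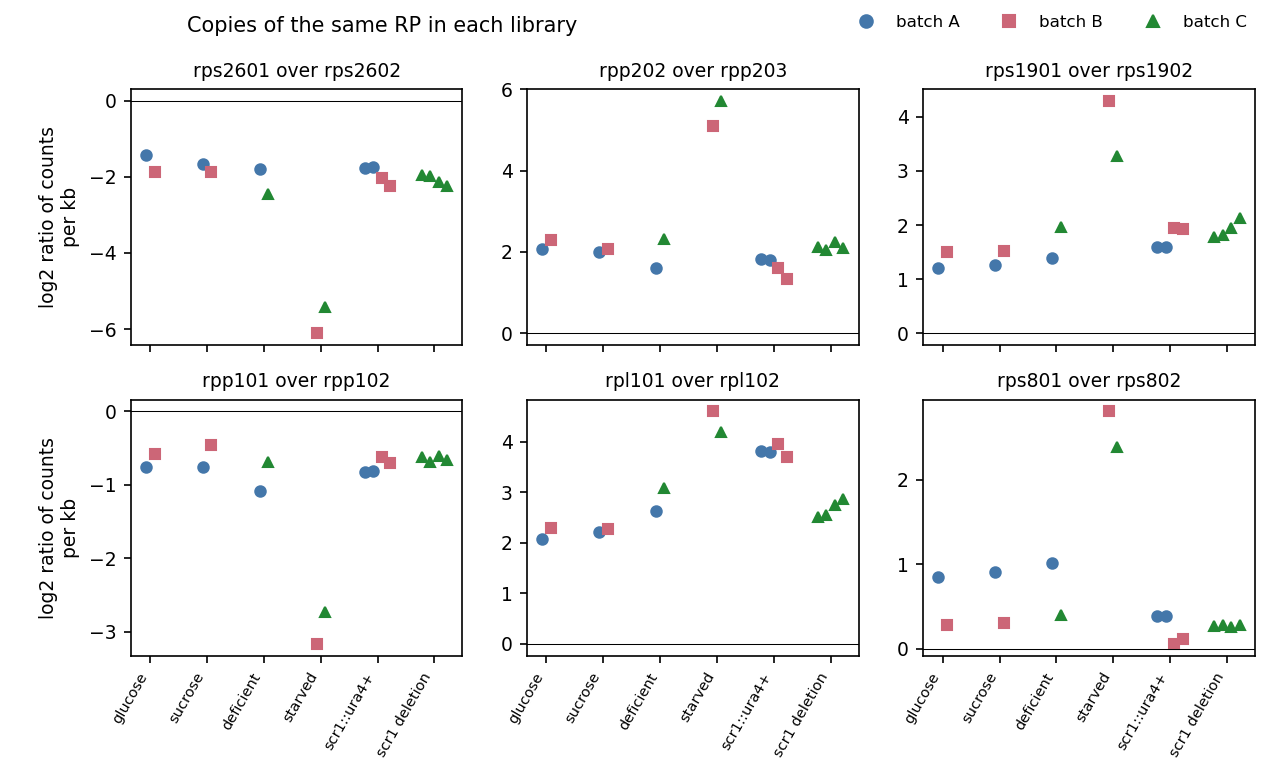
Log2 ratio of counts per kb (y axis) for 6 pairs of copies of the same RP in each library (x axis, condition or mutant, with glucose and sucrose libraries of a mutant together). Symbols give the batch, and the pairs were picked for display after their values had been seen. Glucose-starved ratios lie apart in all panels, and rpl101 over rpl102 is also raised in the 4 libraries labelled scr1 disruption.

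With 0.1% glucose in the glycerol medium no RP gene was called. In the glucose-deficient condition against glucose, 0 of 138 members were called in either direction (3.71% of all features fell and 3.87% rose), 0 passed without the fold change minimum (8.37% and 10.1% of features), and 7 had an unadjusted p under 0.05 (33.9% of features). The median log2 fold change was 0.05 over members and -0.03 over all features, and its direction depended on the fit. It was -0.25 with wild type libraries alone, -0.20 with the mutants as separate groups and -0.23 with library totals (-0.29 over all features), and within batch A the median difference was 0.04. At the lower end were rpl4102 (eL41) with 248 and 366 CPM in glucose, against 161 and 130 CPM in the glucose-deficient condition (-0.94 ± 0.48, adjusted p = 0.191) and rpl102 with 370 and 363 CPM in the glucose-deficient condition (-0.79 ± 0.36, adjusted p = 0.143). In both the groups did not overlap. They were followed by rpl3402 (-0.65 ± 0.32), rpl39 (-0.57 ± 0.42) and rps3001 (-0.55 ± 0.44), with adjusted p-values of 0.174, 0.362 and 0.409.

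At the upper end were rps001 (uS2) with 983 and 852 CPM in glucose, against 1559 and 1923 CPM in the glucose-deficient condition (0.74 ± 0.29, adjusted p = 0.0921), and rps1002 (eS10) with 603 and 460 CPM and 915 and 910 CPM (0.72 ± 0.41, adjusted p = 0.241). rps2 followed (0.66 ± 0.29, adjusted p = 0.138), with rpl13 (0.64 ± 0.27, adjusted p = 0.121) and rpl15 (0.62 ± 0.24, adjusted p = 0.0913). The groups did not overlap in these 5 genes. Glucose-deficient libraries were both above both glucose libraries in 31 members (22.5%, against 20.3% of all features) and both below in 29 (21.0%, against 23.8%). The stalk genes and rps601 and rps602 had log2 fold changes between -0.40 (rpp202) and 0.33 (rpp102), with adjusted p-values of 0.542 or more.

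These small differences varied with gene length. The log2 fold change rose with the coding length across members (Spearman's rho 0.56 over 138 members), with a median of -0.11 for the 47 members with coding lengths under 400 bases and 0.15 for the other 91. The same relation had a rho of 0.62 in the comparison of the mutants with wild type in glucose and -0.13 in that of glucose-starved cells with glucose. The part of library construction in this relation was not tested.

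Glucose-starved cells also differed from glucose-deficient cells, where both media held glycerol. Of the 138 members, 79 fell and 0 rose (16.3% and 19.6% of all features), and 67 of the 79 were also among the 78 called against glucose, with which this comparison shares the glucose-starved libraries. An unadjusted p under 0.05 was found for 105 members (62.9%), and both starved libraries were below both glucose-deficient ones for 98 members and above for 4 (31.5% and 26.6%). The median was -1.16 over members. The share of members that fell was 57.2% over all libraries, 28.3% without glucose-starved replicate 1, where 2 members rose, and 91.3% without replicate 2 (17.1% and 18.2% of all features fell in those fits). rps2601 had a log2 fold change of -3.79 ± 0.47 (adjusted p = 4.17e-05) and rpl1603 one of -3.40 ± 0.35 (adjusted p = 1.12e-05). At the other end, rpp202 had 0.80 ± 0.49 (adjusted p = 0.181) and rps27 had 0.55 ± 0.32 (adjusted p = 0.156).

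No RP gene was called in sucrose against glucose (0% of all features fell and 0.0149% rose). None had an unadjusted p under 0.05 (1.91% of features), and the median log2 fold change was 0.08. Both sucrose libraries were above both glucose libraries for 10 members and below for 0 (7.59% and 5.98% of features). The lowest members were rps2202 (-0.05 ± 0.27) and rpl31 (-0.04 ± 0.31), and the highest rps2 (0.35 ± 0.28) and rpl1602 (0.32 ± 0.43), each with an adjusted p of 1. The batches differed here. In batch B, sucrose minus glucose had a median of 0.16 and was above 0 in all but 1 member. In batch A the median was 0.0015 and 67 of 138 members were below 0.

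No RP gene was called in the libraries labelled as scr1 mutants. In glucose, 0 of 138 members passed in either direction (0.568% of all features fell and 1.27% rose), 0 passed without the fold change minimum (0.822% and 1.9%), and 2, rpl102 and rpl401, had an unadjusted p under 0.05 (15.4% of features). In sucrose, 0 passed with the minimum (0.583% and 0.986%) or without it (0.867% and 1.49%), and 1, rpl102, had an unadjusted p under 0.05 (17.3%). The medians were 0.20 and 0.10 (-0.01 over all features in both media) with the mutants pooled, but the fitted direction differed between the mutants and with the scaling. With the disruption alone the medians were 0.32 in glucose and 0.19 in sucrose, with the deletion alone they were -0.48 and -0.52, and with library totals in place of TMM factors -0.04 and -0.08. The 4 mutant libraries in glucose were all above both wild type libraries in 41 members (29.7%, against 11.8% of all features), and in 13 members in sucrose (9.42%, against 12.3%). They were all below in 1 member in each medium, rpl102 in glucose and rpl1901 in sucrose (8.56% and 8.43% of features). At the upper end were rpl1602 (0.58 ± 0.39, adjusted p = 0.531) and rps1002 (0.53 ± 0.36, adjusted p = 0.536) in glucose, and rps802 (0.38 ± 0.35, adjusted p = 0.64) and rpl101 (0.36 ± 0.35, adjusted p = 0.661) in sucrose. The scr1 effect did not differ between sucrose and glucose by the test of the difference for any member (smallest adjusted p = 1). No batch C library used here was wild type in glucose or sucrose, so the deletion can be compared with wild type only across batches. With the mutants as separate groups, the batch C term rested only on the glucose-deficient and glucose-starved pairs. Starved replicate 1 minus replicate 2 had a median log2 difference of -1.18 over members. The RP shares of the deletion libraries (25.6% to 26.1%) lay inside those of wild type glucose and sucrose libraries (22.9% to 28.5%).

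rpl102 was the member with the lowest fitted values in the mutants. In the libraries labelled scr1 disruption it was at 208 and 301 CPM (glucose) and 209 and 333 CPM (sucrose). In the libraries labelled scr1 deletion it was at 497 and 459 CPM (glucose) and 496 and 435 CPM (sucrose). The disruption libraries lay below all wild type glucose and sucrose libraries (458 to 602 CPM), and of the deletion libraries 3 lay inside that range and 1, in sucrose, below it. Within batches, disruption minus wild type was -1.28 in A and -0.78 in B in glucose, and -1.13 and -0.86 in sucrose. In the test with the mutants pooled, the log2 fold change was -0.99 ± 0.31 in glucose (adjusted p = 0.132) and -1.01 ± 0.31 in sucrose (adjusted p = 0.111). It was not called with either mutant alone, and the fitted values were close to each other. The disruption gave -1.02 ± 0.38 in glucose and -0.98 ± 0.38 in sucrose (adjusted p = 0.2 and 0.217), and the deletion, set against wild type of other batches through the batch term, -0.98 ± 0.55 and -1.07 ± 0.55 (adjusted p = 0.394 and 0.328). With DESeq2 it was called in sucrose (adjusted p = 0.0384), and in glucose its adjusted p was 0.048 with a log2 fold change short of the minimum. In the disruption cells the scr1 allele and the 3 auxotrophy alleles cannot be told apart.

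The ratio of the uL1 copies, from the same values, was also higher in the disruption libraries. rpl101 over rpl102 had log2 ratios of 2.07 and 2.30 in wild type glucose libraries, 3.81 and 3.96 in the disruption in glucose, and 2.50 and 2.75 in the deletion in glucose. In glucose-starved wild type cells it was 4.60 and 4.19. The other end of the same comparisons was held by rpl3402 in glucose (-0.35 ± 0.28, adjusted p = 0.61) and rpp202 in sucrose (-0.51 ± 0.41, adjusted p = 0.581).

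Related gene sets were counted in the same way in glucose-starved cells, where 20.0% of all features fell and 20.7% rose. Of 5 further parts of the ribosome (the ubiquitin fusion genes ubi1, ubi2, ubi3 and ubi5, and cpc2, the RACK1 homologue on the 40S subunit), 2 fell and 0 rose. ubi3 fell by 1.62 ± 0.48 (adjusted p = 0.0112) and ubi5 by 1.56 ± 0.47 (adjusted p = 0.0123). Ribosome biogenesis genes process rRNA and assemble subunits, and were taken here by name alone (nop, utp, rrp, imp or rrs with a digit). Of 58 genes with such names, 40 fell and 1 rose, with a median of -1.42. Names of this form may include genes of other functions, which was not checked. In the glucose-deficient condition, where 0 RP genes fell, 8 of these 58 did (3.71% of all features, median -0.63). Mitochondrial RP genes, which serve the mitochondrial ribosome, were taken by name with the same limit (mrpl, mrps, mrp or rsm with a digit). Of 60 genes with such names, 3 fell and 8 rose, with a median of -0.01.

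Of 8 translation elongation factor genes, 0 were called in either direction in glucose-starved cells against glucose. Without the fold change minimum, 3 were lower and 3 higher, the latter being the genes of eEF1A, which brings aminoacyl-tRNA to the ribosome: tef101 (0.85 ± 0.31, adjusted p = 0.0332), tef102 (0.92 ± 0.30, adjusted p = 0.0179) and tef103 (0.995 ± 0.31, adjusted p = 0.0158). tef101 had 6519 and 5160 CPM in glucose, 11578 and 14927 CPM when deficient in glucose and 7788 and 15197 CPM in glucose-starved cells. In the glucose-deficient condition against glucose these 3 genes passed the full rule (3.87% of all features rose), with log2 fold changes of 1.09 ± 0.31 for tef101, 1.01 ± 0.29 for tef102 and 1.02 ± 0.31 for tef103 (adjusted p = 0.0304, 0.0328 and 0.0393). The authors' counting gives a read with several alignments to each place. Reads shared among these 3 genes were not examined, so they may not be 3 separate calls. In glucose-starved against glucose-deficient cells 1 of the 8, tif512, was called lower (-1.33 ± 0.25, adjusted p = 0.00074). The windows of these 3 tef genes and of tef3 carried HomolD, as did those of ubi2, ubi5 and cpc2.

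Of 14 genes for growth signalling and for regulators of ribosomal genes, 6 rose and 0 fell in glucose-starved cells (20.7% and 20.0% of all features). They are cgs1, the regulatory subunit of protein kinase A, with 4.59 and 4.30 CPM in glucose, against 95.4 and 37.8 CPM in glucose-starved cells (4.11 ± 0.34, adjusted p = 1.97e-06), and pka1, its catalytic subunit, with 47.6 and 72.9 CPM and 729 and 765 CPM (3.51 ± 0.26, adjusted p = 7.99e-07). maf1, a repressor of RNA polymerase III, rose by 2.48 ± 0.24 (adjusted p = 4.67e-06). gad8, a kinase downstream of TOR complex 2, rose by 1.88 ± 0.17, ssp2, the AMP-activated kinase subunit, by 1.60 ± 0.19, and fhl1, a forkhead factor, by 1.02 ± 0.13, with adjusted p-values of 3.57e-06, 2.29e-05 and 4.02e-05. 0 of the 14 were called in the glucose-deficient condition.

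Counts of some members are uncertain because reads could have been shared. In 8 members, among them the copies rpl1201 and rpl1202 and the copies rpl301 and rpl302, at least 10% of the 50-base stretches also occur elsewhere in the genome, and 106 members have no such stretch. A further feature overlaps 15 members on the same strand and 50 members on the opposite strand, the latter being counted together in the unstranded batch A. Counts are large: the lowest member count in any library was 46, for rpl1603 in glucose-starved replicate 1. The batch terms passed an adjusted p under 0.05 in 36 of 138 members (55.2% of all features), and members were higher by a median of 0.32 in B and 0.38 in C than in A.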

How the data were processed

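Total RNA from 16 cultures was ribo-depleted and sequenced. Per the labels and the study's methods, the authors trimmed reads (cutadapt 1.9.1), aligned them to ASM294v2 with TopHat2 2.1.1 and deposited counts per feature from featureCounts 1.5.2, where a read with several alignments or on overlapping features counts for each of them, without normalization. Total counts per library set the precision of shares, and every sample column was used (0 left out). Strains in the labels and in the study's tables differ for some wild type and scr1 disruption libraries. Strain names did not enter the fits, where groups followed the labelled conditions.

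Counts were fitted with edgeR 4.0.16 (R 4.3.3): TMM factors, a low-count filter (minimum count 10; all 138 members passed, 6691 features tested), 6 groups with the scr1 mutants pooled, a batch term and a quasi-likelihood test with 8 residual degrees of freedom. Calls needed an adjusted p (Benjamini-Hochberg, all features) under 0.05 together with an absolute log2 fold change above 1. Standard errors were derived from the fold change and F. CPM are TMM-scaled, copy ratios and within-batch differences used a prior of 0.5, and the fit was tested on simulated data. Tables and motif searches were made in Python 3.11.15, with windows and protein identities from RefSeq sequence and annotation. All 138 members matched RefSeq.

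Members and lists were chosen with earlier results of these data known. Genes were named by a rule: for glucose-starved and glucose-deficient cells against glucose the 5 members at each end of the fold changes, 2 at each end of the other comparisons, any member called in sucrose or the mutants, the stalk genes, rps601 and rps602, the 3 highest and 3 lowest by level, and the 5 pairs of copies whose ratios changed most. Further genes were named after their values had been seen, as were the promoters printed. Alternatives were DESeq2 1.42.0, its size factors, library totals, TMM factors without the RP genes, fits lacking the filter or the batch term, a block for the replicate number, fewer libraries, either mutant alone, no fold change minimum, subsets of members and leaving out each library.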

Additional observations from a re-analysis of the deposited data

Results flagged for a closer look

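In 4 of 72 groups of 4 libraries examined, a library lay apart from the others in its group by Dixon's test, where chance gives about 1 in 20. In all 4 the library was scr1 disruption replicate 2 in glucose, the only batch B library of the group: rpl101 was at 4730 CPM, rpl3002 at 175.2 CPM, rps1002 at 966.6 CPM and rps27 at 3103 CPM, each the highest of the 4. Batch moved with these values, and its part in them was not tested.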

How the results depend on the processing

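The fall in glucose-starved cells against glucose (78 members lower) kept its direction under every alternative. The count was 25 to 117 over fits without 1 library, with 0 to 2 members higher, and 40 with stranded libraries alone, and it stayed within 1.5 times the main count under the others. Against glucose-deficient cells 57.2% of members fell with all libraries and 28.3% to 91.3% without 1 library, with 0% to 1.45% higher. The member called where the full fit had 0 was rpl102: 1 lower in the glucose-deficient condition with library totals, and 0 to 1 without 1 library (deficient replicate 1); 1 in the mutants in glucose and 1 in sucrose with library totals; 1 in sucrose with DESeq2; and 0 to 1 in either medium without a glucose-deficient replicate. In sucrose against glucose 0 members were called throughout. For rpp202 the log2 fold change in glucose-starved cells was 1.41 without starved replicate 1 and turned to -1.05 without starved replicate 2. With library totals the median of all features in glucose-starved cells moved to -0.39 and that of members to -1.56, and with TMM factors computed without the RP genes to 0.14 and -0.99. Same-numbered cultures may share a pre-culture, which the labels do not give. Their deviations correlated between -0.09 and 0.97, and 66 members were lower when the fit had a replicate block and no batch term. Of 59 results for named genes, 1466 of their values under other settings kept direction and call, 38 lost and 29 gained the call. Each wild type condition had 2 libraries. The p-values measure a spread per gene estimated over all 16 libraries after the batch term. They do not measure the gap between the 2 glucose-starved libraries alone.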
